A study of Homo sapiens with 15 samples.

Results

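The genes described here encode 7 families of developmental transcription factors, taken by their symbols: HOX, FOX, SOX, PAX, TBX, LHX and NKX. Of 19756 protein-coding genes on the autosomes and the X chromosome, 147 had such a symbol, with 39 HOX, 45 FOX, 19 SOX, 9 PAX, 13 TBX, 8 LHX and 14 NKX genes. They were read for DNA G-quadruplexes, 4-stranded folds of guanine-rich DNA, in K562, an established human leukaemia line with erythroid and megakaryocytic features. Asynchronously growing cells were crosslinked, and their chromatin was precipitated with BG4, an antibody against G-quadruplexes, and sequenced. There were 2 biological replicates, with technical libraries 1a and 1c from the first and 2a, 2b and 2c from the second. The series also holds K562 input libraries and bisulfite libraries of HaCaT keratinocytes, which were not analysed here, so no DNA methylation value enters below.

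Each library had its own list of called peaks, between 8059 and 12495 in number, and read depth is unknown. A list of 8955 high-confidence regions was deposited for all libraries together, and it was identical to the bases covered by peaks of at least 3 of the 5 libraries. A gene was counted as having a region, or a peak, when it lay within 1 kb of an annotated start site of the gene. In the lists of 2a and 2c the peak names bear the letter of the other library. Values are given by sample label, so those of 2a and 2c may be exchanged.

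HOX genes encode homeodomain proteins that set position along the body axis and lie in 4 clusters, in which gene order follows the order of expression along the axis. FOX proteins bind DNA through a forkhead domain, SOX proteins through an HMG box, PAX proteins through a paired domain and TBX proteins through a T-box, while LHX and NKX proteins are further homeodomain factors. Most act in a few embryonic tissues, and in other cells their promoters, often inside long CpG islands, are commonly kept silent by Polycomb complexes. Some FOX genes, among them members of the FOXK, FOXJ, FOXN, FOXO and FOXP subfamilies, are instead expressed in many adult cell types.

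The sequences under the regions of 4 members are shown first: that of LHX6 with high folds, the GC-richest (FOXK1), 1 of the sole SOX gene with a region, and 1 TBX region without a motif. Each is read along the gene's own strand in GRCh37. Bases of untranslated exons were left out, and of longer regions the 300 bases with the most motif sequence are given. Capitals mark a G-quadruplex motif, here at least 3 G repeated 4 times, the runs separated by 1 to 7 bases. A separating base may itself be G. Runs of capital C are motifs on the opposite strand, and a motif cut at the end of a stretch is not marked.
FOXK1, chr7:4721808-4721920, + strand: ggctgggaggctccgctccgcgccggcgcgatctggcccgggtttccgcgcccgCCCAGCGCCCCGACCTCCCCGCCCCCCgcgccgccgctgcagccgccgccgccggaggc
LHX6, chr9:124976245-124976544, - strand: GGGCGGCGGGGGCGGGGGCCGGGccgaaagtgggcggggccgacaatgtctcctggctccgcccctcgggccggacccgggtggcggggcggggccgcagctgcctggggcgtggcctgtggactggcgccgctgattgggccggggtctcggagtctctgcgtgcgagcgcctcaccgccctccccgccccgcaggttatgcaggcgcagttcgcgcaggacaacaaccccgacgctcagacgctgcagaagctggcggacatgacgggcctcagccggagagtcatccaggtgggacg
SOX12, chr20:305938-306157, + strand: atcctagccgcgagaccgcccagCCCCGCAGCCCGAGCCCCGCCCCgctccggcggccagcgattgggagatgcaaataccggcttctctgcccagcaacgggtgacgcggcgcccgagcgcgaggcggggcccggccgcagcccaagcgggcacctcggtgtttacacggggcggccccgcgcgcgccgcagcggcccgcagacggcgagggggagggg
TBX6, chr16:30103246-30103398, - strand: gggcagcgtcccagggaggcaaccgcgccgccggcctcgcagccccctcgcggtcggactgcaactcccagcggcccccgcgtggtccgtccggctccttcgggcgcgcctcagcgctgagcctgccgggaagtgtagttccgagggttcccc

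The stretches of FOXK1, LHX6 and SOX12 held 1 motif each, on the gene's strand in LHX6 and on the opposite strand in FOXK1 and SOX12. The 153 bp of TBX6 held none, although they had runs of G or C. Over all 22 regions at members, 10 (45.5%) held a motif, beside 37.3% of the 6848 regions at any protein-coding gene.

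Motifs were also common at members where no library had a peak. From each family 1 member with no peak was taken, that with the most motifs within 1 kb of its canonical start site (ties by alphabetical order). Its motif nearest to that start site outside untranslated exons is given on the G-rich strand, with the runs of G in capitals. In TBX2 and NKX6-2 a long run of G counts as more than 1 of the repeats.
HOXC8, chr12:54402579-54402606, - strand: GGGGGttgaGGGGtacaGGGctGGGGGG
FOXC1, chr6:1609936-1609957, + strand: GGGcgcaGGGccGGGGcccGGG
SOX11, chr2:5832377-5832397, + strand: GGGcGGGGtggaGGGGcGGGG
PAX2, chr10:102505128-102505145, - strand: GGGGaGGGcaGGGGaGGG
TBX2, chr17:59477092-59477108, - strand: GGGaGGGGGGGcctGGG
LHX3, chr9:139097009-139097027, - strand: GGGcGGGGcGGGcagcGGG
NKX6-2, chr10:134599751-134599774, - strand: GGGGGcgcgcGGGcGGGGGGGGGG

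These 7 motifs all lay upstream of the start site, the nearest in LHX3 at -44 bp and the farthest in FOXC1 at -203 bp. The rule favours that side, since the untranslated exons left out begin at the start site and run downstream. The 2 kb around the canonical start site held 9 motifs in PAX2 and TBX2, 7 in FOXC1, SOX11 and NKX6-2, 6 in HOXC8 and 5 in LHX3. Of the 115 members with no peak in any library, 104 had at least 1 motif in that window and 107 had a CpG island. Over all 147 members the shares were 91.8% and 93.9%, and over all protein-coding genes 68.6% and 75.5%. A motif is a match of letters and not a measured structure.

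Few of the developmental factors had a G-quadruplex region. A high-confidence region lay at 18 of 147 members (12.2%, 95% Wilson interval 7.89 to 18.5), beside 34.9% of all 19756 protein-coding genes. The difference from the 19609 other genes was -22.9 percentage points (95% Newcombe interval -27.3 to -16.6). Regions with a peak in all 5 libraries lay at 11 members (7.48%), beside 22.3% of all genes. Even a peak in 1 library was less common, at 32 members (21.8%) beside 47.8% of all genes. With peaks of −log10 p of 10 or more alone, 9 members had a region, beside 24.9% of all genes. The intervals give counting error alone, and genes of 1 cluster are not independent of each other.

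The shortfall was seen in each library. Library 1a had a peak at 23 members (15.6%), beside 38.7% of all genes. In 1c it was 17 members (11.6%) beside 32.7%, and in 2a 16 members (10.9%) beside 32.0%. In 2b it was 19 members (12.9%) beside 35.6%, and in 2c 26 members (17.7%) beside 39.1%. In every library the share of members was below the share of all genes. Averaged within biological replicates, the share was 13.7% ± 0.1603 (SD, n = 2) for members and 35.6% ± 0.0758 (SD, n = 2) for all genes, a ratio of 0.382 ± 0.00419 (SD, n = 2).

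CpG islands, which go with regions in all genes, were more common at members than elsewhere. An island was built from 500 bp windows in which GC made up 0.55 or more of the bases and CpG reached 0.65 of the number that the C and G content predicts. Such an island lay within 1 kb of a start site at 138 members (93.9%), beside 75.5% of all genes. Among genes with an island, 18 of 138 members (13.04%, 8.41 to 19.7) had a region, beside 45.5% of all 14919. The difference from the other island genes was -32.7 points (-37.4 to -26.1), wider than over all genes.

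The families differed in their counts, from 0 of 14 NKX genes to 11 of 45 FOX genes. FOX had 24.4% (14.2 to 38.7), TBX 2 of 13 (15.4%, 4.33 to 42.2), LHX 1 of 8 (12.5%, 2.24 to 47.1) and PAX 1 of 9 (11.1%, 1.99 to 43.5). SOX had 1 of 19 (5.26%, 0.935 to 24.6), HOX 2 of 39 (5.13%, 1.42 to 16.9), and for NKX the interval reached 21.5%. HOX lay below FOX, with a difference of -19.3 points (-34.0 to -3.75). That interval takes the HOX genes as independent although they lie in 4 clusters. With regions of all 5 libraries 1 HOX gene (2.56%, 0.454 to 13.2) and 5 FOX genes (11.1%, 4.84 to 23.5) had a region, and these intervals overlap. The intervals of HOX against SOX (-0.135 points, -19.9 to 12.4), HOX against TBX (-10.3, -37.4 to 5.88), PAX against FOX (-13.3, -30.2 to 20.6) and SOX against FOX (-19.2, -34.1 to 2.72) all included 0, so no order among these families can be read at these sizes. Without library 1a, 2b or 2c in turn 1 HOX gene had a region, beside 31.0, 31.6 and 30.3% of all genes. Without 2c 6 FOX genes had.

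**Figure D1:**
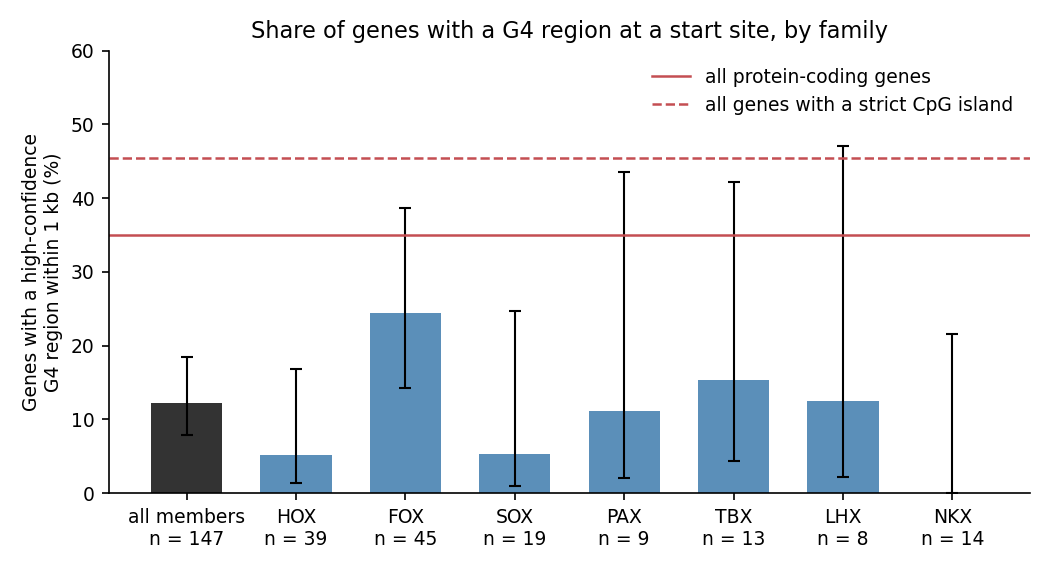
Share of genes (%) with a high-confidence G-quadruplex region within 1 kb of a start site, for all 147 members and for each family, with n the number of genes. Bars are shares, error bars 95% Wilson intervals, and the red lines the shares of all protein-coding genes (34.9%, solid) and of all genes with a CpG island (45.5%, dashed); every family's bar ends below the solid line.

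The HOX clusters held few regions for their many CpG islands, and motifs were present in all 4 clusters. How dense motifs are elsewhere in the genome was not computed. The 4 clusters, each taken with 1 kb on either side, held 119 CpG islands, of which 2 (1.68%) overlapped a region, beside 17.8% of the 37789 such islands of the genome. The HOXA cluster (chr7:27131612-27240710) had 35 islands and 70 motifs and no peak in any of the 5 libraries. The nearest region lay between 231203 and 335298 bp from the start sites of its 11 genes. The HOXD cluster (chr2:176956449-177056635) had 23 islands, 67 motifs, no region and only 2 peaks, both in library 1c.

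The HOXB and HOXC clusters each held 2 regions. HOXB9, a posterior HOX gene, had a 370 bp region upstream of its start site (chr17:46703859-46704228), 139 bp from it. A further region of 3 libraries lay 4901 bp from the same start site (chr17:46708621-46708718). HOXC13, which acts in hair and nail formation, had a 67 bp region (chr12:54332355-54332421), 194 bp from its start site. The last region, in 4 libraries, lay 1017 bp from a start site of HOXC4, just outside the window, and within 1 kb of the start of a non-coding transcript (chr12:54411732-54411903). Its folds were 11.3 in 1a, 7.54 in 1c, 4.68 in 2b and 6.07 in 2c, and 2a had no peak there.

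Both HOX genes with a region belong to the posterior paralog groups. HOX genes numbered 9 to 13 had a region at 2 of 16, those numbered 1 to 4 at 0 of 12 and those numbered 5 to 8 at 0 of 11. The intervals of these shares overlap, reaching 24.2% for groups 1 to 4 and 25.9% for groups 5 to 8, beside 12.5% (3.50 to 36.0) for groups 9 to 13, so no order can be read. With a window of 2 kb HOXC4, of group 4, had a region as well. All 31 HOX genes without a peak in any library had a motif within 1 kb of the canonical start site, beside 97.4% of all 39 HOX genes and 68.6% of all genes.

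**Figure D2:**
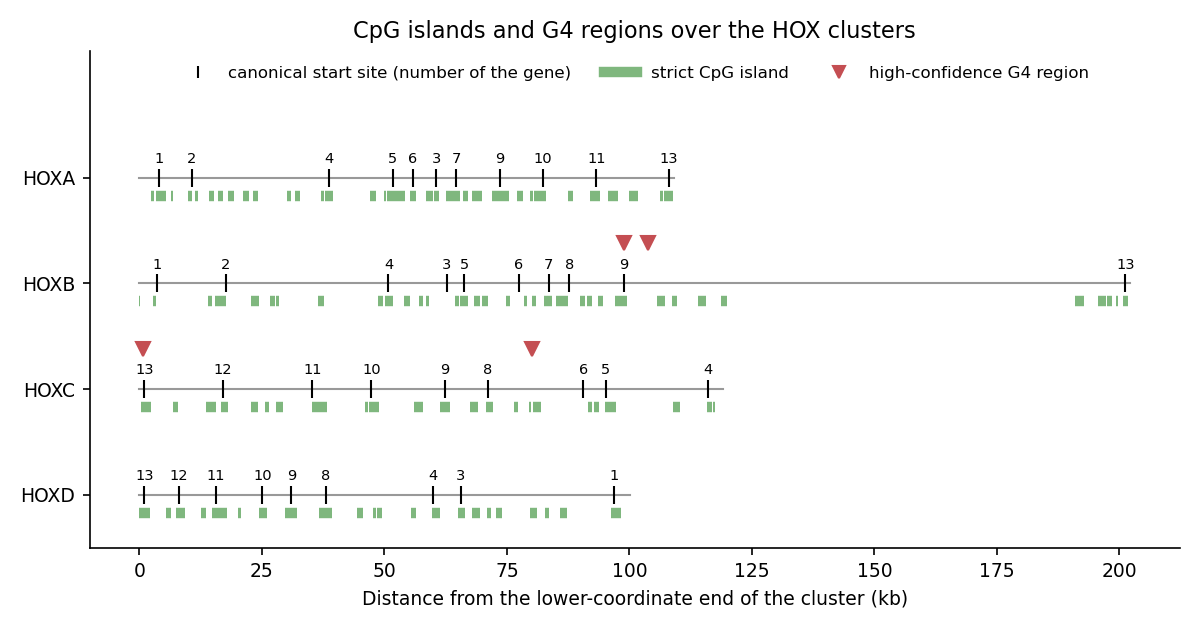
Map of the 4 HOX clusters by distance from the lower-coordinate end (kb), with black ticks for canonical start sites numbered by gene, green bars for CpG islands and red triangles for high-confidence regions. The 119 islands spread over all 4 clusters, while triangles stand over HOXB (2) and HOXC (2) only.

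FOX genes held 11 of the 18 members with a region, and these fell in both broad branches of the family. The subfamilies H, J, K, M, N, O, P and R had regions at 7 of 21 genes (33.3%, 17.2 to 54.6): FOXJ3, FOXK1, FOXK2, FOXN2, FOXO3, FOXO6 and FOXP4. The other subfamilies, A to G with I, L, Q and S, had regions at 4 of 24 (16.7%, 6.68 to 35.9): FOXA3, FOXD2, FOXL1 and FOXL2. The difference of 16.7 points had an interval of -8.40 to 40.2, which included 0. It depended on the processing, at 25 points (1.18 to 47.1) without library 1c or with regions of 1 gene only. It was 5.95 points (-13.9 to 27.2) with regions of all 5 libraries or with −log10 p of 10 or more. The first group differed from all genes that are not members by -1.78 points (-17.9 to 19.5), and among island genes by -6.89 (-25.5 to 15.6). With regions of all 5 libraries it had 3 of 21 (14.3%, 4.98 to 34.6), beside 22.4% of genes that are not members. Without this group, the other 126 members had regions at 11 (8.73%), with a difference from genes that are not members of -26.4 points (-30.2 to -20.1).

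FOXK1 and FOXK2, forkhead factors of metabolism and autophagy, both had a region, and they are the only members of their subfamily. Among the FOXO genes, effectors of insulin signalling, FOXO3 and FOXO6 had regions and FOXO1 and FOXO4 had no peak. FOXO3 had 3 regions, each in 3 libraries, spread over 2 start sites: 161 bp (chr6:108880816-108880976), 28 bp (chr6:108881980-108882007) and 127 bp (chr6:108882028-108882154). The 161 bp region had folds of 5.40 in 1a, 6.56 in 2b and 7.25 in 2c. Both other regions shared 1 peak of 1a (4.87) and 1 of 2c (3.79), joined by 2a (6.03) in the 28 bp region and by 1c (6.50) in the 127 bp region. The sets of libraries thus differed, and FOXO3 had a peak in all 5 libraries but no region shared by all 5.

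The regions of 5 further FOX genes were found in 3 or 4 libraries. FOXJ3 (chr1:42800889-42801070) had folds of 4.27 in 1a, 9.06 in 2a, 4.19 in 2b and 6.28 in 2c. FOXK1 (chr7:4721808-4721920) had 6.92 in 2a, 5.97 in 2b and 4.09 in 2c, and it was the only 1 of the 22 regions with peaks of a single biological replicate. FOXL1 (chr16:86609451-86609550), a gene of gut mesenchyme, had 8.48 in 1c, 4.69 in 2b and 6.11 in 2c. These regions rest on differing sets of libraries. FOXL2 (chr3:138665985-138666103), a factor of ovarian granulosa cells, had 7.31 in 1a, 6.30 in 1c and 6.64 in 2c. FOXP4 (chr6:41513975-41514070) had 6.82 in 1a, 4.996 in 2b and 5.07 in 2c. Of the HOX exceptions, HOXC13 likewise had 3 libraries, with 5.98 in 1a, 5.93 in 2b and 4.09 in 2c.

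In the remaining families the members with a region were few and distinct. SOX12, a group C SOX gene, had regions at chr20:305095-305284 and chr20:305938-306157, each in all 5 libraries, while SOX4 and SOX11 of the same group had no peak. In the remaining SOX groups no gene had a region, SOX1, SOX2, SOX3 and SOX9 included. PAX8, a factor of thyroid and kidney, had its region (chr2:113992999-113993120) over an internal start site, its nearer edge 43378 bp from the canonical start site, inside coding sequence and near the start of the antisense transcript PAX8-AS1. TBX1, of pharyngeal development, and TBX6, of the presomitic mesoderm, had regions at chr22:19744159-19744339 and chr16:30103239-30103398. LHX6, of cortical interneurons, had its region (chr9:124976235-124976584) at an internal start site, its nearer edge 14652 bp from the canonical start site. No NKX gene had a region.

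Fold enrichment at the peaks, the authors' value, was high at a few of these members. In libraries 1a, 1c, 2a, 2b and 2c, in this order, LHX6 had folds of 13.4, 11.4, 9.96, 7.76 and 9.80. FOXN2 had 13.4, 12.5, 9.87, 8.98 and 7.46. FOXO6 had 15.4, 13.1, 10.8, 7.48 and 9.54. In every library these 3 genes lay at percentile 73.2 or above of that library's peaks.

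The middle group held FOXA3, SOX12, FOXK2, PAX8 and FOXD2. FOXA3, a liver forkhead factor, had folds of 9.70, 11.2, 7.39, 8.15 and 5.86 at its region present in all 5 libraries (chr19:46366396-46366668). A second FOXA3 region (chr19:46367393-46367534) lacked a peak in 1c and had 4.48 in 1a, 9.67 in 2a, 6.88 in 2b and 9.48 in 2c. It lies nearer to the start site than the first. SOX12 had 6.20, 7.05, 7.86, 11.2 and 8.07 at the region nearer to its start site and 5.31, 5.03, 7.86, 6.33 and 10.1 at the farther one. FOXK2 (chr17:80477430-80477688) had 10.8, 8.14, 8.27, 5.39 and 6.50. FOXK2 is a paralog of FOXK1, whose region was found in fewer libraries. PAX8 had 7.43, 5.84, 5.43, 6.93 and 5.46. FOXD2 (chr1:47903255-47903668) had 9.28, 7.96, 5.12, 6.28 and 7.49. The lowest percentiles of these 5 genes ran from 46.3 for FOXA3 to 16.5 for FOXD2.

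The lowest group held TBX6, HOXB9 and TBX1. TBX6 had folds of 4.11, 6.13, 6.19, 6.26 and 5.49. HOXB9 had 12.97, 10.3, 8.32, 3.88 and 5.07. TBX1 had 3.74, 4.49, 4.31, 3.45 and 3.46, low in all 5. Within their own libraries, HOXB9 lay above the median fold of genes with a region in 1a, 1c and 2a and below it in 2b and 2c, and its lowest percentile was 4.14. Over the 11 members the median of the lowest percentile was 30.7, beside 40.4 over the 4407 genes with such a region. Folds come from lists of different length, so genes are ranked here by percentile within each library.

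**Figure D3:**
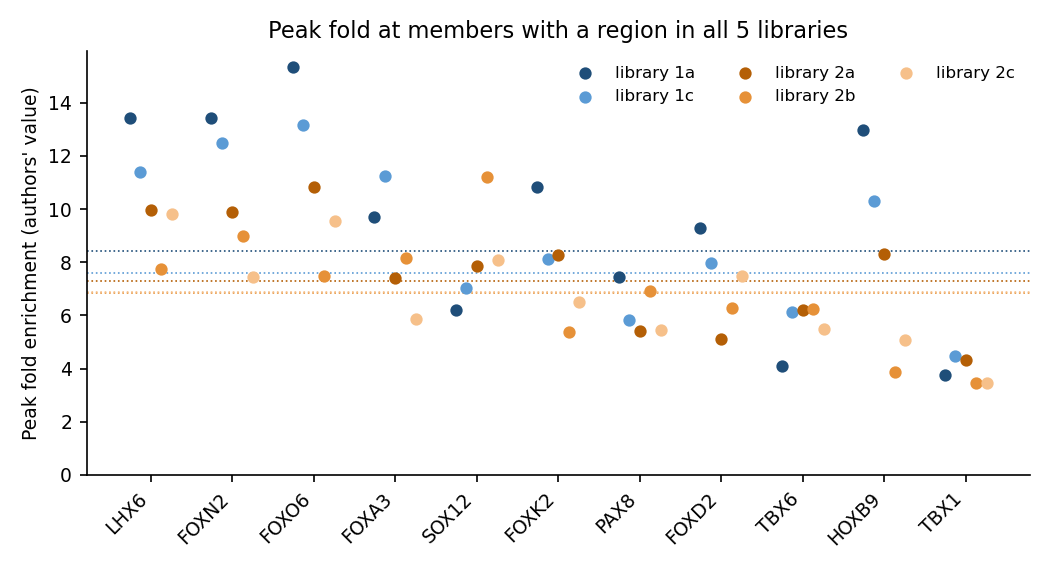
Fold enrichment (authors' value, linear) of the peak at each of the 11 members with a region in all 5 libraries, 1 point per library, ordered by the lowest percentile over libraries. Dotted lines are each library's median over all genes with a region (between 6.84 in 2b and 8.41 in 1a). LHX6, FOXN2 and FOXO6 lie above their library's line in all 5, and TBX6 and TBX1 below it in all 5.

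A further 14 members had a peak in 1 or 2 libraries but no region. A peak inside the HOXB3 gene and upstream of HOXB4 was found in 1a (fold 5.49) and 2a (6.42), and it lay within 1 kb of start sites of both genes. A peak near start sites of HOXC6 and HOXC9 was found in 1a (5.56) and 2c (6.10). NKX3-2, a skeletal patterning gene and the sole NKX gene with a peak, had folds of 8.61 in 1a and 6.10 in 2c. These peaks were in pairs of libraries from both biological replicates. PAX9 had 5.08 in 2b and 5.25 in 2c, and TBX3 had 6.63 in 2b and 4.39 in 2c. TBX18 had 8.11 in 1a and 5.42 in 1c at different peaks. HOXC4, HOXD12, FOXJ2, SOX18 and TBX10 had a peak in 1 library each, with folds between 3.61 for FOXJ2 and 7.54 for HOXC4.

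No peak of any library was found at 31 HOX, 32 FOX, 17 SOX, 7 PAX, 8 TBX, 7 LHX and 13 NKX genes. They included all HOXA genes, FOXA1, FOXA2, FOXM1, FOXP1, FOXP2 and FOXP3, SOX2, SOX9 and SOX10, PAX3 and PAX6, TBX5 and TBX21, LHX2, and NKX2-1 and NKX2-5. From the nearest start site of a member to the nearest region the median distance was 113228 bp (quartiles 16684.5 and 349968), beside 31077.5 bp over all genes. These medians include the genes that have a region. Among genes without a region the median was 153913 bp for members and 109544 bp for all genes. Regions inside the gene but more than 1 kb from its own start sites were found at 4 of the 129 members without a promoter region (3.10%) beside 4.32% of all such genes. These members were HOXB7, HOXC4, HOXC6 and PAX5. The regions inside HOXB7 were those named above near HOXB9. HOXC4 and HOXC6 shared the same region, named above, 1017 bp from a start site of HOXC4.

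GC content and motifs, both higher at genes with a region, were also higher at members. Over all genes, the median GC content within 1 kb of the canonical start site was 59.0% with a region and 53.9% without one. It was 61.2% in members and 56.0% in all genes. A motif lay in that window in 135 members (91.8%) beside 68.6% of all genes, and of these genes 13.3% of members and 41.5% overall had a region. With loops of up to 12 bases, a motif lay within 1 kb of any start site in 98.6% of members and 85.2% of all genes. Members' CpG islands were also longer, with a median of 1859 bp beside 1368.5 bp, and 19 of 209 (9.09%) overlapped a region beside 37.6%.

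Within classes of promoter GC the members stayed lower. Between 50 and 60% GC, 1 of 46 members (2.17%) had a region, beside 39.6% of all genes. Between 60 and 70% it was 13 of 76 (17.1%) beside 47.4%, and at 70% or more 4 of 15 (26.7%, 10.9 to 52.0) beside 49.5%, where the interval included the share of all genes. Under 50% GC, 0 of 10 members had a region, beside 10.9%, and the interval there reached 27.8%. Among members, those with a region had a median GC of 64.3% and those without 60.8%.

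Members had fewer annotated start sites, with a median of 2 beside 3. Of members with 1 start site, 5 of 71 (7.04%) had a region, beside 19.3% of all such genes. With 2 to 3 it was 14.9% beside 33.0%, with 4 to 7 it was 20% beside 43.8%, and with 8 or more 22.2% beside 51.2%. In the last class the interval of the members (6.32 to 54.7) included the share of all genes. Taking for each member the share of the other genes of the same class of CpG island, number of start sites and GC gave an expected 59.5 members with a region, where 18 were observed. By family the expected numbers were 16.1 for HOX (2 observed), 17.8 for FOX (11), 6.99 for SOX (1), 4.15 for PAX (1), 5.03 for TBX (2), 3.59 for LHX (1) and 5.83 for NKX (0). FOX subfamilies H, J, K, M, N, O, P and R had 7 where 8.69 were expected, and the other FOX genes 4 where 9.09 were. From the share of each chromosome alone, 51.3 members were expected.

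**Figure D4:**
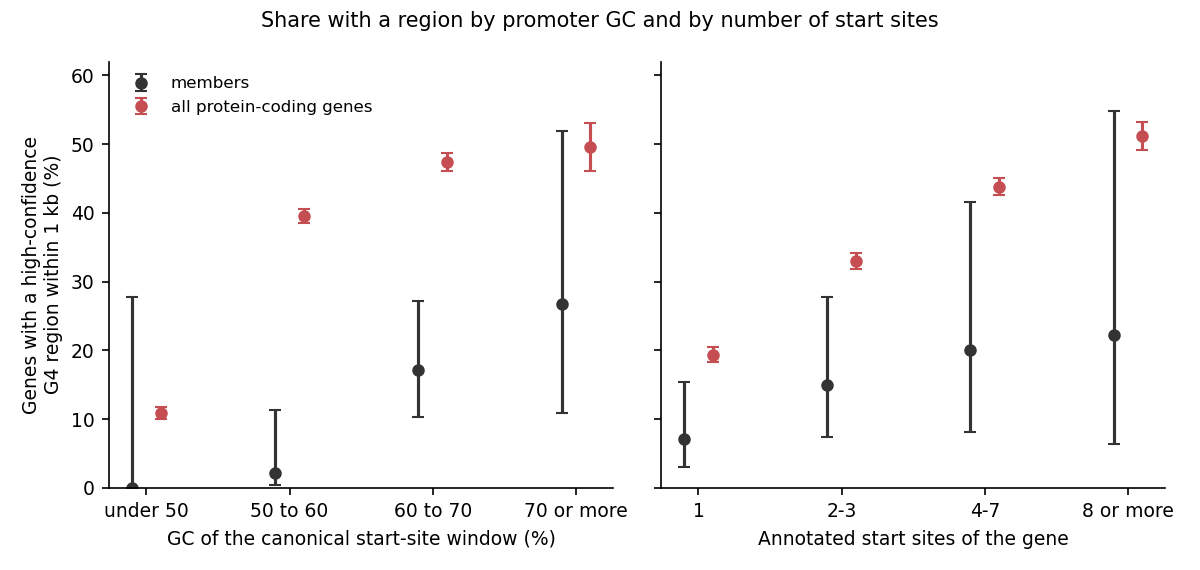
Share of genes (%) with a high-confidence region by GC content within 1 kb of the canonical start site (left) and by number of annotated start sites (right), for the 147 members (black) and all protein-coding genes (red). Points are shares and bars 95% Wilson intervals; every black point lies below the red point of its class, from 0% beside 10.9% under 50% GC to 26.7% beside 49.5% at 70% GC or more.

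Where a member had a region, it lay upstream of the start site more often than at genes in general. Regions of 11 of the 18 members (61.1%, 38.6 to 79.7) lay upstream of the nearest start site without covering it, beside 23.6% of the 6904 genes with a region. The start site itself was covered in 7 members (38.9%, 20.3 to 61.4), beside 72.7%. No member's region lay only downstream, beside 3.71% of all genes. By number of start sites, upstream regions were found at 5 of 5 members with 1 start site (56.6 to 100%) beside 35.3% of all such genes. With 2 to 3 it was 57.1% (25.05 to 84.2) beside 28.0%, and with 4 or more 33.3% (9.68 to 70.001) beside 17.99%, both intervals including the share of all genes. Of the 22 regions, 12 lay wholly outside the member's gene and 18 reached to within 200 bp of a start site.

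The members' regions were mostly short and at the canonical start site. Their median width was 171 bp, from 28 to 557 bp, beside 215 bp. A region lay within 1 kb of the canonical start site in 14 of 18 members (77.8%) beside 94.0% of all genes with a region, the exceptions being FOXL1, LHX6, PAX8 and TBX1. All 22 lay in CpG islands, with GC from 59.0% in PAX8 to 85.8% in FOXK1. Peaks of all 5 libraries were found at 12 of 22 (54.5%) beside 58.8%.

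**Figure D5:**
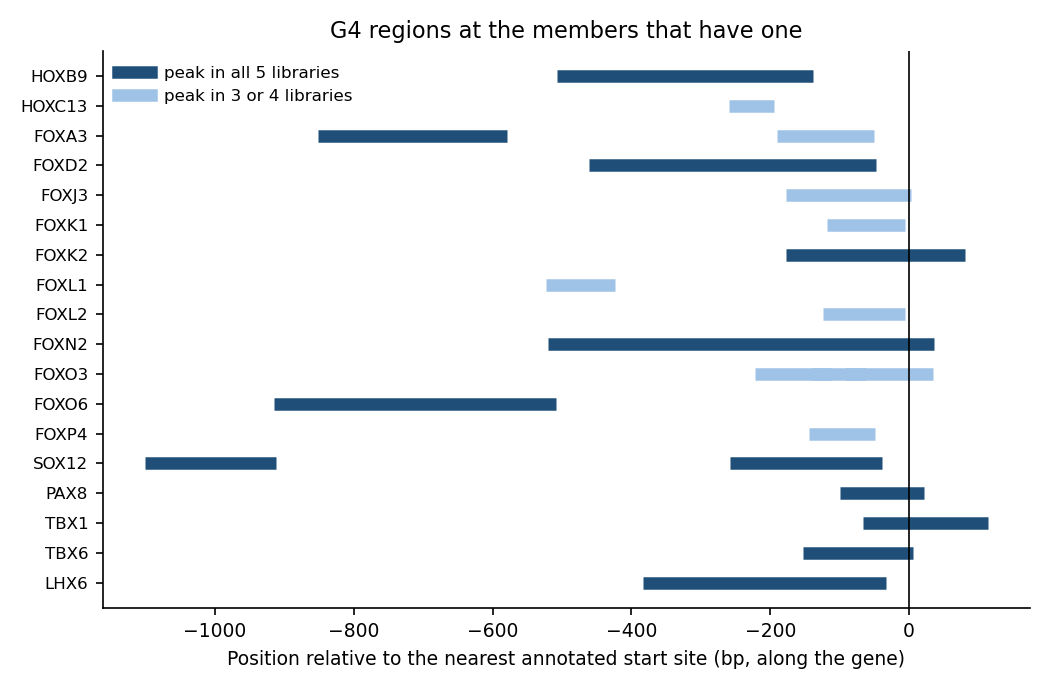
Position (bp along the gene) of the 22 high-confidence regions relative to the nearest annotated start site, 1 row per member with a region; dark bars have a peak in all 5 libraries and light bars in 3 or 4. In 11 of the 18 members no bar reaches the line at 0, and all of these bars lie to its left, upstream.

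Shared promoters were counted next. Another protein-coding start site lay within 1 kb of a start site in 8.16% of members and 19.1% of all genes. Only FOXA3, next to SYMPK, and FOXL2, next to FOXL2NB, had regions that also lay at another protein-coding gene, 2 of 18 (11.1%, 3.10 to 32.8) beside 29.3% of genes with a region, a share inside that interval. Among genes with no such neighbour, 11.9% of members and 29.99% of all genes had a region. Non-coding start sites lay within 1 kb of the regions of FOXN2, FOXP4 (FOXP4-AS1), PAX8 (PAX8-AS1) and SOX12 (NRSN2-AS1), each on the opposite strand.

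Regions were also counted at genes related to the members. HOX cofactors, the homeodomain proteins that bind DNA with HOX proteins, had a region at 4 of 9 (44.4%, 18.9 to 73.3), namely PBX2, PBX3, PBX4 and PKNOX1, an interval that includes the 34.9% of all genes. PKNOX1 had folds of 21.6, 16.1, 11.1, 11.1 and 17.2 in the same order of libraries, above every member in each library but 2b. MEIS1, MEIS3 and PKNOX2 had no peak. Of 45 relatives outside the name pattern (other homeobox and T-box genes and GATA4, GATA5 and GATA6), 10 (22.2%, 12.5 to 36.3) had a region: MNX1, MGA, ISL2, PITX1, PITX3, OTX1, SIX5, IRX5, DLX1 and DLX2. All 45 had a CpG island, so the share to set beside theirs is 45.5%. The CDX, GSX, LMX1 and EVX genes had no peak.

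Markers of K562 had a region at 7 of 12 (58.3%, 32.0 to 80.7), an interval that includes the 34.9% of all genes. They were TAL1, GFI1B, NFE2, ZFPM1, EPOR, LYL1 and RUNX1. Peaks lay at GATA1 in 1 library and at KLF1 in 4 without a region, and at LMO2 and HBG1 in none. Markers of keratinocytes (0 of 4), lymphocytes (0 of 3) and hepatocytes (0 of 2) had no peak in any library. These lists hold few genes and do not settle the identity of the cells, and none of the markers of other cell types had a CpG island.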

How the data were processed

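BG4 chromatin immunoprecipitation of K562 cells gave 5 peak lists, called with MACS2 on hg19 per the submitters' processing notes, 1 list per library; its version and settings and the aligner are not given in the sources used here. The deposited score of each peak was a whole number, the fold enrichment deposited with it was a ratio of its signal to background, and the deposited −log10 p and q values were those of the same peak, as the authors' peak caller gave them. They were used only to describe or filter peaks within a list. Depth in reads is unknown.

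Start sites came from protein-coding transcripts in GENCODE release 44 mapped to GRCh37, and the canonical start site was that of the tagged or, failing that, the longest transcript. Overlap by 1 base within 1 kb counted. Islands, GC and motifs were computed from GRCh37 with Python 3.11.15, numpy 2.4.6, scipy 1.17.1 and pysam 0.24.0, checked on simulated data. The lists hold no per-sample groups to compare, so no test was run: shares have 95% Wilson and differences Newcombe intervals, and technical libraries were averaged within replicates (n = 2). Members with a region in all 5 libraries are given with every fold, other members with a region or a peak are named with folds or counts, and related lists were set alongside. Of 46 relatives 45 were used, since SRY lies outside the chromosomes taken. The members, lists and rules were chosen with earlier results of these data known. Some genes and sequences are not reported here.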

Additional observations from a re-analysis of the deposited data

Results flagged for a closer look

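The share of SOX genes with a peak was 10.5% in library 2c, beside 5.26% in the other 4 libraries, and so stood apart from them; the difference is the peak at SOX18. Of 20 groups of 5 library values examined in this way this was the only one that stood apart. The rule's chance rate of about 1 in 20 assumes continuous, independent values. It does not carry over to tied shares, where 1 gene makes the whole gap, or to technical libraries.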

How the results depend on the processing

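The members' share of genes with a region stayed below that of all genes in every alternative, with a ratio of 0.350 in the main analysis and between 0.245 and 0.427 over the others. With regions of all 5 libraries only, 11 members had a region, and 7.97% of members with a CpG island did. With peaks of −log10 p of 10 or more, 9 members and 6.52% did. Both settings also lowered the share of all genes, to 22.3% and 24.9%. Leaving out each library in turn gave between 12 and 17 members, beside 30.3 to 32.7% of all genes. A region still needed peaks of 3 libraries there, so these counts could only fall or stay. With a window of 500 bp 17 members had a region and with 2 kb 21, FOXH1, HOXC4 and PAX5 being added, and with 1 start site per gene 14. The shares of all genes in these settings were 34.1, 35.7 and 32.9%. The difference between the FOX branches rose from 16.7 to 25 points (1.18 to 47.1) when regions of more than 1 gene were left out, and likewise without library 1c, where the range without each library in turn was 10.7 to 25 points. It fell to 5.95 points (-13.9 to 27.2) with regions of all 5 libraries and with −log10 p of 10 or more; the cause was not tested. HOX had 1 gene with a region without 1a, 2b or 2c, beside 31.0, 31.6 and 30.3% of all genes, and FOX 6 without 2c. The comparison within classes of CpG island, start sites and GC, and the position per gene, were added after the data were seen. Shares of families with 8 to 19 genes have wide intervals, and without read depth an absent peak cannot be told from a weak one.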
